A study of Mus musculus with 2 samples.

Results

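The interleukin-6 family was followed through 7 genes of cultured mouse macrophages, chosen by name: the ligands Il6, Lif, Osm and Clcf1 and the receptor chains Il6ra, Il6st and Osmr. The FPKM values (fragments per kilobase of transcript, scaled to library depth) of all transcript rows with one of these gene symbols were summed. All 7 were found among the 23444 gene symbols of each deposited table. The series holds 2 RNA-seq libraries, 1 per group, of macrophages grown from bone marrow of FVB mice. The first is labelled WT, RON proficient, and is called the WT-labelled library here; the second is labelled RON TK-/-, RON deficient, and is called the TK-labelled library, where RON is the receptor tyrosine kinase encoded by Mst1r. Per the labels both cultures were kept in high glucose DMEM with serum, pyruvate and glutamine and were exposed for 72 hours to interleukin-4 (recombinant, 10 ng/mL), so that by the labels both groups share interleukin-4, with no untreated culture as a control. How many animals gave each culture is not stated in the labels. With 1 library per group no difference has a replicate check, no test was run, and "higher" and "lower" compare these 2 libraries, not the genotypes.

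The ligands among the members signal through gp130, the product of Il6st. Interleukin-6 first binds its own receptor chain, encoded by Il6ra, and the pair recruits gp130; oncostatin M (Osm) pairs gp130 with the chain encoded by Osmr, leukaemia inhibitory factor (Lif) pairs it with Lifr, and Clcf1 acts through Cntfr together with Lifr. The receptors activate JAK kinases and above all the transcription factor STAT3, and SOCS3 shuts the signal off at gp130. Macrophages are a main source of interleukin-6 and oncostatin M in inflammation, and NF-kB, AP-1 and C/EBP factors are known to act on the Il6 promoter.

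The promoters of Il6, Lif and Il6st are shown because Il6 and Lif were the members furthest lower in the TK-labelled library, and Il6st is the receptor chain that all the ligands share and was higher there. Each run covers 300 bases, 250 before to 50 after the gene's start in RefSeq (GRCm38.p6), 5′ to 3′ on the strand of the gene, which is the plus strand for each: chr5:30012864-30013163 for Il6, chr11:4257318-4257617 for Lif and chr13:112463820-112464119 for Il6st. The Lif window lies at the upstream of its listed starts, and the Il6 start in RefSeq lies 47 bases before the start of the transcript listed in the files, so that its window holds 3 bases of that transcript. Capitals mark matches to the searched motifs.
Il6: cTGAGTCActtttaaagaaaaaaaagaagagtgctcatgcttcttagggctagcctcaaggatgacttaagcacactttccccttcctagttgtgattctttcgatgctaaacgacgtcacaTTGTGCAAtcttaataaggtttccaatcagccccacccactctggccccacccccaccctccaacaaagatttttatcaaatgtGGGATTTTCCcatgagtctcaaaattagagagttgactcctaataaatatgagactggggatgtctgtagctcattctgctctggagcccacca
Lif: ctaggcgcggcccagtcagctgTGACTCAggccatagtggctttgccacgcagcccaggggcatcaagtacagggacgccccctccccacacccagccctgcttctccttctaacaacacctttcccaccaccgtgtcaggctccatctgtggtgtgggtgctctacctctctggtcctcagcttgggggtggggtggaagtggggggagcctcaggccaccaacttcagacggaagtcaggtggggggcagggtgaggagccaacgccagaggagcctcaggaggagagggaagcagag
Il6st: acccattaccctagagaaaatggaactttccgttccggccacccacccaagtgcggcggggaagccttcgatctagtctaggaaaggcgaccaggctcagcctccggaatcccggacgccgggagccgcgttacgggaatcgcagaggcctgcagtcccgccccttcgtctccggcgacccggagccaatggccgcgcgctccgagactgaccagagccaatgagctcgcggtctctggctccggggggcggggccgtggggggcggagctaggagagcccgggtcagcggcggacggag

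The search covered 5 motifs on both strands. The NF-kB-like motif was GGGATTTTCC, with any base allowed at its adenine and at the thymine that follows it. The AP-1-like motif was searched as the letters TGANTCA. A STAT-like motif was written TTCNNNGAA and a C/EBP-like motif TTNNGCAA. The last motif was the TATA-like TATAAA. No match overlapped another. The Il6 promoter held 3 of these 5 motifs. GGGATTTTCC began 44 bases before the RefSeq start, TTGTGCAA 128 bases before it and TGAGTCA 249 bases before it, which is 91, 175 and 296 bases before the start of the listed transcript. Of 32851 promoters of the same length, 1.63% held the NF-kB-like motif, 10.8% the C/EBP-like and 7.81% the AP-1-like. Lif held 1 match, TGACTCA, 228 bases before its start, and Osmr 1, TGATTCA, which began at base 4 of the transcript. These letters were not in the windows of Il6st and Il6ra, and the STAT-like and TATA-like letters, held by 8.30% and 13.6% of promoters, were in the window of no member. The Il6 window was the least GC-rich, with 44.0% G and C against 63.7% for Lif, 66.0% for Il6ra and Osmr, 68.3% for Il6st and a median of 52.7% over all promoters. The table matched 5 of the 7 members, without Osm and Clcf1. A match is a stretch of letters and not a measured binding site.

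Before the members are described, the libraries have to be set against their labels. Mst1r was listed at 0 FPKM in both libraries and so checked neither genotype. Arg1, Chil3 and Retnla, which interleukin-4 induces in mouse macrophages, had 5041, 4604 and 3665 FPKM in the TK-labelled library, but 1.005, 0 and 0 FPKM in the WT-labelled library, whose label also states interleukin-4. Mrc1, checked beside them, had 71.2 FPKM in the WT-labelled library and 1016 FPKM in the TK-labelled library. On Arg1, Chil3 and Retnla, the WT-labelled library thus goes against its treatment label. Both labels state the same treatment, so an exchange of the 2 labels would change only which genotype this library carries. Whether the labels were exchanged cannot be told from these files. A different treatment and a difference between genotypes cannot be told apart there either. Every direction below holds only as far as the labels do. The inflammatory gene Tnf had 1262 FPKM in the WT-labelled library and 0.525 in the TK-labelled library. All 8 macrophage markers were detected in both libraries, among them Lyz2 (3317 and 4651 FPKM, WT first) and Csf1r (184 and 267 FPKM). On FPKM + 1, 3 of the 8 were at least 2-fold lower in the TK-labelled library, Cd14 (1010 and 33.7 FPKM), Fcgr1 (26.6 and 3.58 FPKM) and Mertk (32.5 and 9.68 FPKM), and 1 was at least 2-fold higher, Itgam (61.04 and 185 FPKM). Of 8 fibroblast or stromal markers 6 were detected. Among these, 0 were at least 2-fold lower in the TK-labelled library and 2 at least 2-fold higher, beside 8.71% and 25.6% of all detected genes. The 2 were Col3a1 (48.5 and 171 FPKM, WT first) and Pdgfra (8.93 and 24.3 FPKM). The summed level of the whole stromal list was 674 FPKM in the WT-labelled library and 899 FPKM in the TK-labelled library. It was led by Col1a2 (407 and 433 FPKM) and Col1a1 (195 and 250 FPKM). Lum stayed under 1 FPKM, and Thy1 was listed at 0 in the WT-labelled library and at 0.0797 FPKM in the other. Stromal cells also make Il6, Lif, Il11 and Osmr, and their part in the values below was not tested. T cell, B cell, dendritic cell and mast cell markers (17 genes in all) were all under 1 FPKM. Of 4 endothelial markers Kdr had 6.54 and 1.72 FPKM and Pecam1 0.527 and 2.53 FPKM, WT first, and of 5 listed neutrophil markers only S100a8 was detected (1.44 and 1.75 FPKM). In bulk RNA, fewer cells of a type and less RNA per cell cannot be told apart.

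All 4 ligands had the lower value, and the chains of the interleukin-6 receptor the higher value, in the TK-labelled library. On the scale of log2 of (FPKM + 1), RON TK-/- over WT, 3 of the 7 members were at least 2-fold lower (Il6, Lif and Clcf1), 2 were at least 2-fold higher (Il6ra and Il6st), and Osm and Osmr lay within 2-fold. Among the 11288 genes called detected here, those that reached 1 FPKM in at least 1 library, 8.71% were at least 2-fold lower and 25.6% at least 2-fold higher. The median log2 ratio of the members was -0.86, against 0.57 for all detected genes. All 7 members counted as detected, but Il6 did so only through the WT-labelled library and Il6ra only through the TK-labelled library. Since the median of all genes was not 0, the ratios were also taken after the RON TK-/- values had been rescaled to a median of 0. Then 5 members were at least 2-fold lower, Osm and Osmr included, and the same 2 higher, beside 13.9% and 8.42% of detected genes.

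**Figure D1:**
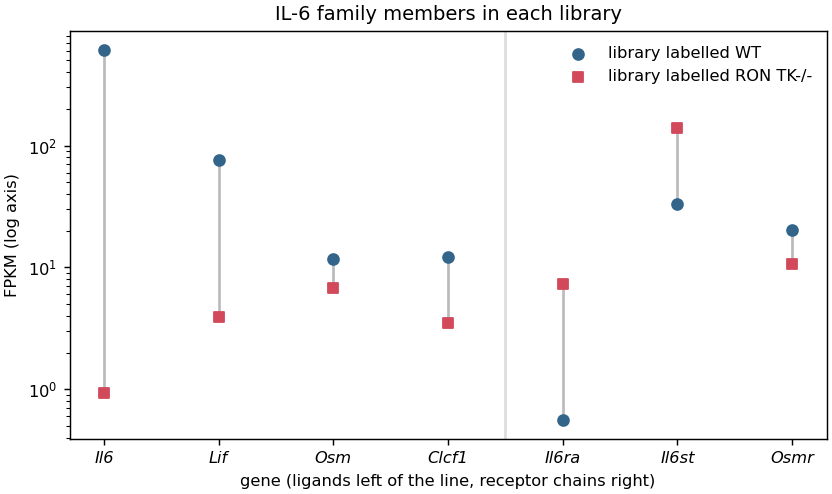
FPKM of the 7 members (log axis) in the WT-labelled library (circles) and the TK-labelled library (squares), 1 library each, with ligands to the left of the line and receptor chains to the right. All 4 ligands and Osmr have the higher value in the WT-labelled library, while Il6ra and Il6st have it in the TK-labelled library.

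Il6, the gene of the founding cytokine, had 611 FPKM in the WT-labelled library and 0.922 FPKM in the TK-labelled library. This is the widest gap among the members: the level was 663-fold higher in the WT-labelled library, and the log2 ratio on FPKM + 1 was -8.32. Only 10 detected genes had a lower ratio. In the WT-labelled library, Il6 was the 93rd most abundant of all genes, with a mean depth of 1840 reads per base and about 39999 estimated reads. In the TK-labelled library its depth was 3.01 reads per base, or about 65.5 estimated reads. That low level still lay above the 0.0411 FPKM that 3 reads would give at the implied depth, a limit that covers counting error only. Il6 lies on chromosome 5 from 30013161 to 30019968 (mm10, plus strand), and the listed transcript has 1087 bases. Exon numbers, 5 for Il6, are here and below those of the GENCODE M21 transcripts matched by RefSeq identifier.

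Lif, a cytokine known for keeping mouse embryonic stem cells undifferentiated, had 76.6 FPKM in the WT-labelled library and 3.89 FPKM in the TK-labelled library, a log2 ratio of -3.99 and a 19.7-fold difference in FPKM. It was the 139th lowest ratio of all detected genes. The files list 2 Lif transcripts that begin at different first exons, at 4257568 and at 4266796 on chromosome 11, and end together at 4272514. The transcript with the upstream start (4 exons) had 29.1 and 1.63 FPKM, and the one with the downstream start (3 exons) 47.5 and 2.27 FPKM, WT first. Both were thus lower in the TK-labelled library, and the downstream start made up 62.0% of Lif in the WT-labelled library and 58.2% in the other. The Lif promoter shown above therefore belongs to the less abundant of the listed transcripts. Most of their bases are shared, so the split rests on the authors' estimate.

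Osm, the oncostatin M gene, had 11.7 FPKM in the WT-labelled library and 6.79 FPKM in the TK-labelled library. With a log2 ratio of -0.71 it was the ligand with the smallest gap. Clcf1, the gene of cardiotrophin-like cytokine factor, had 12.2 and 3.46 FPKM, a log2 ratio of -1.56. The 2 genes were thus at nearly the same level in the WT-labelled library, and Osm was the higher of them in the other. Osm lies on chromosome 11 from 4236785 to 4241026 and Clcf1 on chromosome 19 from 4214392 to 4222615. In GENCODE M21 the same strand of the Clcf1 locus also holds the longer protein-coding gene AC109138.7, which has no row in the deposited tables, so reads from it could have been added to Clcf1.

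Summed over the 4 ligands, the level was 712 FPKM in the WT-labelled library and 15.1 FPKM in the TK-labelled library. Il6 alone made up 85.9% of the first sum and 6.12% of the second. Osm made up 1.65% of the first and 45.1% of the second, where it was the most abundant ligand transcript. The order in the WT-labelled library was Il6, Lif, Clcf1 and Osm, and in the TK-labelled library Osm, Lif, Clcf1 and Il6. With no spread between replicates, it cannot be said which neighbours in these orders differ.

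**Figure D2:**
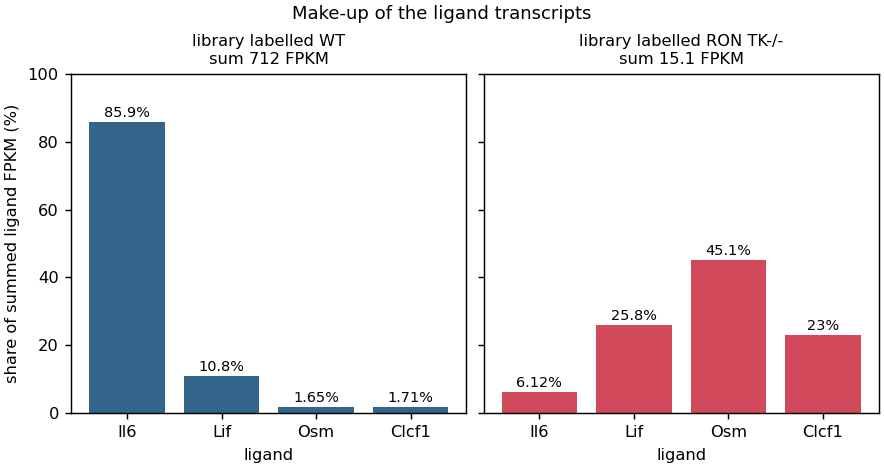
Share of each ligand (bars, percent) in the summed FPKM of Il6, Lif, Osm and Clcf1, in the WT-labelled library (left, sum 712 FPKM) and the TK-labelled library (right, sum 15.1 FPKM). Il6 takes 85.9% on the left and 6.12% on the right, where Osm has the largest share at 45.1%.

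Il6ra, the chain that binds interleukin-6 and gives a cell its own response to it, had 0.557 FPKM in the WT-labelled library and 7.36 FPKM in the TK-labelled library. The level was 13.2-fold higher in the latter, from about 103 and 1593 estimated reads. On FPKM + 1 the log2 ratio was 2.43, the 223rd highest of the detected genes, and this scale understates the gap because 1 is added to a low value. Il6ra lies on chromosome 3 from 89869324 to 89913162 on the minus strand. GENCODE M21 places the antisense gene Gm42809 over its 5′ end, and whether the counting used strand is not stated.

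Il6st, the shared gp130 chain, had 32.9 FPKM in the WT-labelled library and 138.8 FPKM in the TK-labelled library, a 4.22-fold difference and a log2 ratio of 2.05. It was the best covered receptor chain, with about 10491 and 49983 estimated reads. It was also the most abundant of the 3 chains in both libraries, at 61.4% and 88.5% of their summed FPKM, WT first. Il6st lies on chromosome 13 from 112464070 to 112506860 and has 17 exons in the matched GENCODE transcript.

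Osmr, the second chain of the oncostatin M receptor, had 20.1 FPKM in the WT-labelled library and 10.6 FPKM in the TK-labelled library, a log2 ratio of -0.86. It was the receptor chain on the ligands' side. Per length, Il6st was 1.63 times as abundant as Osmr in the WT-labelled library and 13.1 times in the TK-labelled library. Osm and Osmr kept a similar proportion, with an Osm to Osmr ratio of 0.583 and 0.641. The proportion of Il6 to Il6ra was 1098 in the WT-labelled library and 0.125 in the TK-labelled library, so the ligand transcript was the more abundant in the former and the receptor transcript in the latter. Osmr lies on chromosome 15 from 6813577 to 6874313 on the minus strand, in 18 exons.

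**Figure D3:**
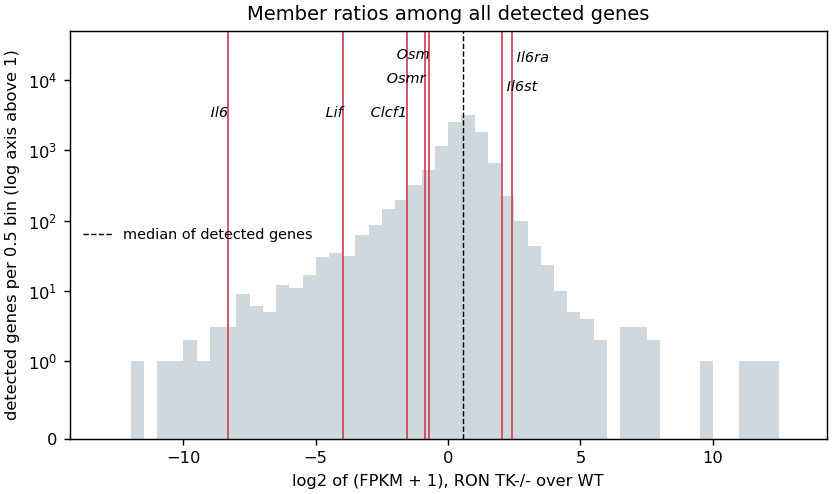
Histogram of the log2 ratio of (FPKM + 1), RON TK-/- over WT, for the 11288 detected genes (count per 0.5 bin, log axis above 1), with the 7 members as vertical lines and the median of 0.57 dashed. Il6 at -8.32 lies in the far left tail, and Il6ra at 2.43 and Il6st at 2.05 lie on the right shoulder.

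The genes whose pair of values was most like a member's were taken as those with the smallest distance on log2 of (FPKM + 1) over the 2 libraries, which share with the members only these 2 points. For Il6 they were the chemokine gene Cxcl2 (535 and 1.16 FPKM, WT first) and the guanylate binding protein gene Gbp5 (584 and 0.614 FPKM). For Lif they were Enc1 (76.1 and 3.72 FPKM) and the RNA sensor gene Ifih1 (86.9 and 3.68 FPKM). Osm was closest to the transporter gene Slc16a10 and to Chpt1, Clcf1 to Usp31 and Wdr59, Il6ra to Rab26os and Igip, Il6st to Snx1 and Gda, and Osmr to Foxp1 and Crabp2.

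Osm and Lif are neighbours on chromosome 11 with 16541 bases between them, and they were compared with the genes within 100 kb of the pair. Lif at -3.99 had the lowest log2 ratio of this stretch. Of 7 other listed genes 6 were detected, with ratios from -1.01 to 0.86. The lowest was the meiotic gene Hormad2, with 1.01 FPKM in the WT-labelled library and listed at 0 in the other. The splicing factor gene Sf3a1 had 4.48 and 8.23 FPKM, Rnf215 2.92 and 6.10 FPKM, and the Rab regulator gene Tbc1d10a 7.78 and 7.73 FPKM, WT first. Gatsl3 (1.72 and 2.13 FPKM) and Ccdc157 (0.714 and 1.04 FPKM) had low levels in both libraries.

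Cytokine transcripts are known for AU-rich stretches in the 3′ UTR, built on the letters ATTTA, at which proteins such as the product of Zfp36 shorten mRNA life. In the GENCODE M21 transcripts matched by RefSeq identifier, the 3′ UTR of Il6 held 6 ATTTA in 427 bases, or 14.1 per kb, that of Osm 6 in 1017 bases, or 5.90 per kb, and that of Lif 7 in 3180 bases, or 2.20 per kb. The median of 42826 protein-coding transcripts was 1.01 per kb, and 12.3% held 6 or more. The receptor genes Osmr and Il6ra had 2.23 and 0.544 per kb. For Clcf1 and Il6st the GENCODE 3′ UTR (922 and 5641 bases) is longer than the whole listed transcript (818 and 5452 bases), so their 4.34 and 1.60 per kb concern a longer model than the one measured. The 30 bases with the most ATTTA (in capitals) are shown for the ligands whose GENCODE 3′ UTR is shorter than the listed transcript, in DNA letters, from base 129 of the Il6, base 3080 of the Lif and base 930 of the Osm 3′ UTR.
Il6: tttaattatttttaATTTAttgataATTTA
Lif: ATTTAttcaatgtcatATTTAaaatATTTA
Osm: aatccgttttatATTTAtaaggcctATTTA

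Beyond the 7 members, a list of 14 other genes of the family was examined, of which 8 were detected. There were 3 at least 2-fold lower in the TK-labelled library and 3 at least 2-fold higher, with a median log2 ratio of -0.50. The shares of all detected genes were 8.71% lower and 25.6% higher. All 3 lower genes encode secreted ligand subunits. Il27, the p28 subunit of interleukin-27, had 116 FPKM in the WT-labelled library and 0.22 FPKM in the other (log2 ratio -6.59), its partner Ebi3 76.7 and 12.5 FPKM, and Il11, a gp130 cytokine, 4.93 and 0.225 FPKM. All 3 higher genes encode receptor chains: Il31ra with 0.0781 and 3.38 FPKM, Il27ra with 0.291 and 2.50 FPKM and Il11ra1 with 13.7 and 35.1 FPKM, WT first. Il27 and Il11 reached 1 FPKM only in the WT-labelled library, and Il31ra and Il27ra only in the TK-labelled library. Their call as detected thus rests on the library where they were higher. After rescaling to a median of 0, Il31ra alone was still at least 2-fold higher (log2 ratio 1.54), beside 8.42% of all detected genes. Il27ra lay just under that cut, at a log2 ratio of 0.999. Lifr, the chain that Lif needs, had 2.52 and 1.23 FPKM, a level 13.05 times lower than that of Il6st in the WT-labelled library and 113 times lower in the TK-labelled library. Cntfr, through which Clcf1 acts, was under 0.04 FPKM in both libraries, Cntf and Ctf1 were under 1 FPKM, and Ctf2, Il31 and Il11ra2 were listed at 0.

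Of 13 genes that relay the signal, all detected, 4 were at least 2-fold lower in the TK-labelled library and 0 at least 2-fold higher, with a median log2 ratio of -0.49. After rescaling, 7 were lower. Among the 4 were Stat5a (33.2 and 6.95 FPKM, WT first), the kinase gene Jak2 (110 and 38.6 FPKM) and Stat3, the family's main transcription factor (97.5 and 35.7 FPKM). Stat3 was thus lower where Il6st was higher. Of 9 feedback inhibitors, 3 were at least 2-fold lower and 2 at least 2-fold higher, and 6 and 1 after rescaling. Beside the counts of both lists, the shares of all detected genes were 8.71% lower and 25.6% higher. After rescaling these shares were 13.9% and 8.42%. Socs3, the inhibitor that acts at gp130, had 515 FPKM in the WT-labelled library and 30.7 FPKM in the TK-labelled library (log2 ratio -4.03), and Socs1 432 and 80.4 FPKM. Pias3, which restrains STAT3, had 0.982 and 5.12 FPKM, and Socs2 2.44 and 7.58 FPKM. Pias3 reached 1 FPKM only in the TK-labelled library, so its call as detected rests on the library where it was higher.

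Of 13 genes that control Il6 production, all detected, 8 were at least 2-fold lower in the TK-labelled library and 1 at least 2-fold higher, with a median log2 ratio of -1.98. The shares of all detected genes, here and for the shedding genes below, were 8.71% lower and 25.6% higher. Members of opposite known action were among the lower genes. Nfkbiz, a cofactor needed for Il6 transcription, had 97.0 FPKM in the WT-labelled library and 4.26 in the other, and the NF-kB subunit gene Rel 40.1 and 5.09 FPKM. Zc3h12a, whose product Regnase-1 degrades Il6 mRNA, had 83.5 and 10.5 FPKM, and Zfp36 223 and 30.02 FPKM. The higher gene was the related decay factor gene Zfp36l1, with 8.18 and 33.2 FPKM, named after its values were seen. Of 4 genes for shedding of the interleukin-6 receptor from the cell surface, 1 was at least 2-fold lower: Rhbdf2, which carries the protease ADAM17 to the surface, with 81.3 and 16.9 FPKM. Adam17 itself had 66.7 and 43.4 FPKM, Adam10 40.2 and 54.1 FPKM and Rhbdf1 3.51 and 2.44 FPKM.

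Of 20 genes known to respond to STAT3, 19 were detected. There were 9 at least 2-fold lower in the TK-labelled library and 1 at least 2-fold higher, with a median log2 ratio of -0.94. The shares of all detected genes were 8.71% lower and 25.6% higher. The acute phase gene Saa3 had 392 FPKM in the WT-labelled library and 3.22 FPKM in the other, the iron-scavenging lipocalin gene Lcn2 43.8 and 0.263 FPKM, and Bcl3 88.7 and 9.50 FPKM. Lcn2 reached 1 FPKM only in the WT-labelled library, so its call as detected rests on the library where it was higher. Socs3 is in this list too, and Cebpb and Cebpd are shared with the production list. The higher gene, named after its values were seen, was Myc, with 6.55 and 23.2 FPKM. Many of these genes also answer to NF-kB, and the part of STAT3 in the values was not tested. Il4ra, also named after its values were seen, which interleukin-6 is known to raise in macrophages and through which interleukin-4 acts, had 52.3 and 59.6 FPKM (log2 ratio 0.19).

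**Figure D4:**
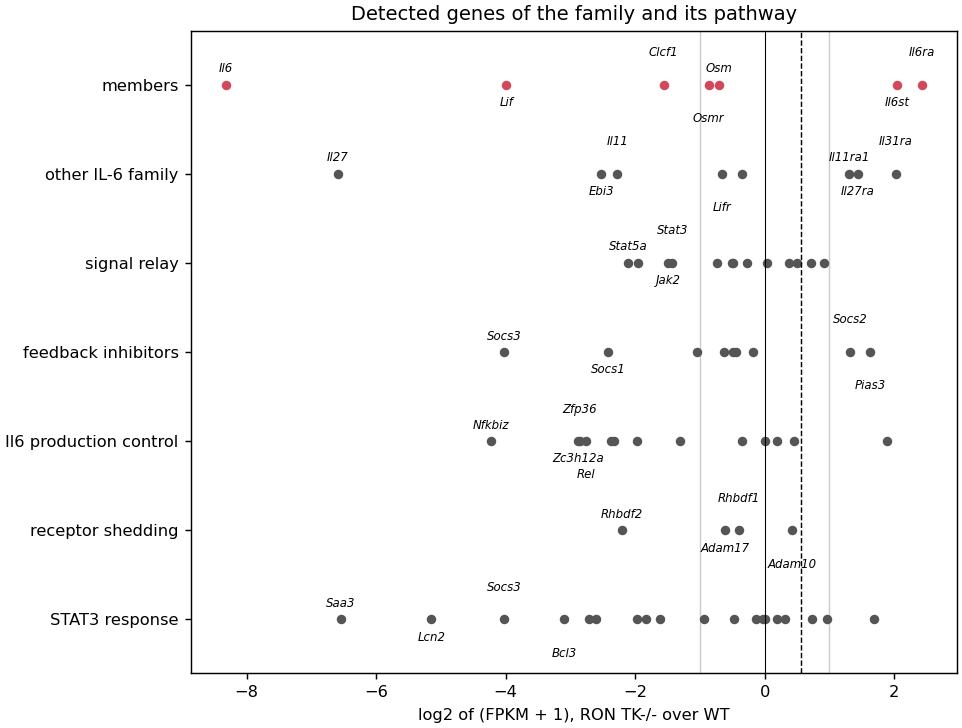
Log2 ratio of (FPKM + 1), RON TK-/- over WT, of each detected gene (points) in the members and 6 related lists, with solid line at 0, dashed line at the median of all detected genes (0.57) and grey lines at 2-fold. In both the members and the other family genes, Il6 (-8.32) and Il27 (-6.59) lead on the left and receptor chains, Il6ra (2.43) and Il31ra (2.02), lie furthest right. Each of these genes reached 1 FPKM in only 1 library.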

How the data were processed

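Both libraries came from total RNA with a TruSeq kit and single reads of 50 bases, per the labels' protocols. For each library the authors deposited a table of FPKM and mean read coverage by RefSeq transcript, in the column layout of Cufflinks, per the file headers. The build was mm10, per the submitters' processing notes. Aligner, annotation release and strand use: not given in the sources used here. Coverage over FPKM implied about 59800000 reads (WT) and 67200000 (RON TK-/-). Reads were estimated as coverage times length over read length, and count models were not applied to these estimates. FPKM was summed per symbol with Python 3.11.15 and pandas 2.3.3, and ratios used a pseudocount of 1 FPKM. Starts are printed counted from 1. The calculation was tested on data simulated from the WT-labelled library with counting error only. The simulation held no spread between cultures, and no planted gene started as low as Il6ra in that library. It therefore checks the arithmetic and not the differences between the libraries.

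The 7 members, the 6 related lists and the marker lists were chosen with earlier results of these data known. The rule for named genes took all members, all detected genes of the list of other family members, up to 4 detected genes with the largest absolute ratio from each further list, the 2 genes most like each member, and the detected genes within 100 kb of Lif or Osm. The label checks, the 3′ UTR search and the scaling by estimated reads were added after seeing the data. Some genes that the rule selects are not reported here. Receptor proteins, planned as sequences, were not used here.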

Additional observations from a re-analysis of the deposited data

How the results depend on the processing

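The settings tried were a pseudocount of 0.1 or 5, a minimum of 5 FPKM or none, scaling to TPM or to a median ratio of 0, only the top row per gene, thresholds of 1.5-fold and 4-fold, and, chosen after seeing the data, estimated reads scaled to library totals. No member ratio changed sign under the 6 settings that recompute it, but many of these outcomes were fixed in advance. A pseudocount cannot reverse a sign, and the top row differs from the sum only for Lif among the members. Rescaling to a median of 0 could only lower the ratios. The unchanged signs are therefore no check on the directions. Il6 ranged from -9.22 to -6.70, Lif from -4.49 to -3.20, Clcf1 from -2.04 to -1.02, Osmr from -1.46 to -0.69, Osm from -1.27 to -0.51, Il6st from 1.39 to 2.07 and Il6ra from 1.15 to 3.51. Of 160 counts under alternatives, 136 stayed within 1.5 times the reported count. Rescaling to a median of 0 gave 5 lower members, 7 lower relay genes, 6 lower and 1 higher feedback inhibitors, 2 lower shedding genes, 1 higher gene among the other family members, and 1564 lower and 950 higher of all detected genes. A pseudocount of 5 gave 0 higher feedback inhibitors, 1 higher other family gene and 983 higher detected genes, and the 5 FPKM minimum gave 1 higher other family gene. At 1.5-fold there were 5 lower members, 2 lower shedding genes, 2 higher relay genes, 3 higher STAT3 response genes and 5519 higher detected genes. At 4-fold there were 0 higher production control genes, 0 higher STAT3 response genes, 0 higher feedback inhibitors, 1 higher other family gene, 1 lower relay gene, and 463 lower and 419 higher detected genes. No paired analysis was possible because each group has 1 library. Depth limits Il6 in the TK-labelled library (about 65.5 estimated reads) and Il6ra in the WT-labelled library (about 103), the smallest read numbers behind member values.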
